A study of Rattus norvegicus with 10 samples.

Results

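The genes of glycolysis, lactate exchange and pyruvate entry into mitochondria were examined in a hypothalamic region, the supraoptic nucleus (SON), of rats with and without drinking water. The group was defined by 35 gene symbols, and its rule sets no threshold on a measured value. Of these, 34 were matched to a row among the 32402 genes of the count table, and 31 had enough counts to be among the 15311 genes tested. No symbol was matched by more than 1 row, and the symbol Gapdh was not matched.

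Glycolysis splits glucose into pyruvate in the cytosol and yields ATP and NADH. Glucose enters through transporters of the SLC2A family, hexokinase traps it, phosphofructokinase sets much of the rate, and lactate dehydrogenase interconverts pyruvate and lactate. Monocarboxylate transporters carry lactate across membranes, and in brain this exchange is known between astrocytes and neurones. The pyruvate dehydrogenase complex admits pyruvate to oxidation, and its kinases switch it off while its phosphatases switch it on. The SON holds magnocellular neurones that make vasopressin and oxytocin, and these neurones greatly increase hormone synthesis when water is withheld.

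Polyadenylated RNA was sequenced from 5 euhydrated samples, with water always available, and 5 dehydrated samples, after 72 h without water. Both groups were Wistar Han with no transgene or drug named in the labels, and neither age nor sex is stated in the sources used here. SON tissue was taken on both sides from 12 frozen coronal sections with a corer of 1 mm, so each library holds neurones, glia and vessels together. The labels do not state that every sample was a different animal, so the p-values measure only the spread between these samples, and water was allotted by cage, which no model held.

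Libraries held between 24268398 and 28491926 counts, with 18709 to 18969 genes detected and 10.9% to 13.5% of counts on mitochondrial genes. Component 1 of a principal component analysis (25.6% of the variance) set the groups apart. The magnocellular marker list, which includes the vasopressin gene Avp (6153 ± 1218 CPM euhydrated, 8475 ± 928 CPM dehydrated, SD, n = 5 each), was abundant in each library, with a summed level of 8079 to 11490 CPM with water and 11530 to 15260 CPM without. Avp itself did not pass edgeR's test (adjusted p = 0.0800). Of the 7 markers, 1 rose (Pdyn, log2 change 1.03, edgeR adjusted p = 0.000261) and 6 did not pass. Log2 changes were above 0 for 5 and below 0 for 2, with a median of 0.09. The mean log2 level of the list differed by 0.25 (exact permutation test, two-sided, p = 0.0159, adjusted p = 0.143 over 9 cell type lists). The erythrocyte list summed to 1029 to 2059 CPM with water and 591.1 to 1428 CPM without. On the log2 scale its mean level differed by -0.81, and that of the microglia list by -0.10 (exact permutation tests, two-sided, p = 0.0317 and 0.0476, both with an adjusted p of 0.143). CPM is a gene's count relative to its library's total, as scaled by edgeR's TMM method. Levels are given as mean ± SD over 5 libraries, and changes as log2 of dehydrated over euhydrated with the standard error.

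By edgeR's quasi-likelihood test at a Benjamini-Hochberg adjusted p of 0.05, 6 of the 31 tested members rose, 2 fell and 23 did not pass. Among all genes tested, 7.79% rose and 4.90% fell. Each count by pathway step below stands beside these shares. The steps hold few genes, and no step was tested as a set. For 4 members (Slc2a1, Eno1, Ldha and Pdk4) every dehydrated library lay above every euhydrated one, as did 6.90% of all genes tested. No member lay wholly below, against 3.97% of all genes. The median log2 change was 0.01 over the members and -0.01 over all genes, and the median absolute change was 0.10 against 0.09. The summed level of the members ran from 7732 to 8225 CPM with water and from 7931 to 8329 CPM without, ranges that overlap. In bulk tissue, more cells of a type and more RNA per cell cannot be told apart, and this holds for every change below.

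**Figure D1:**
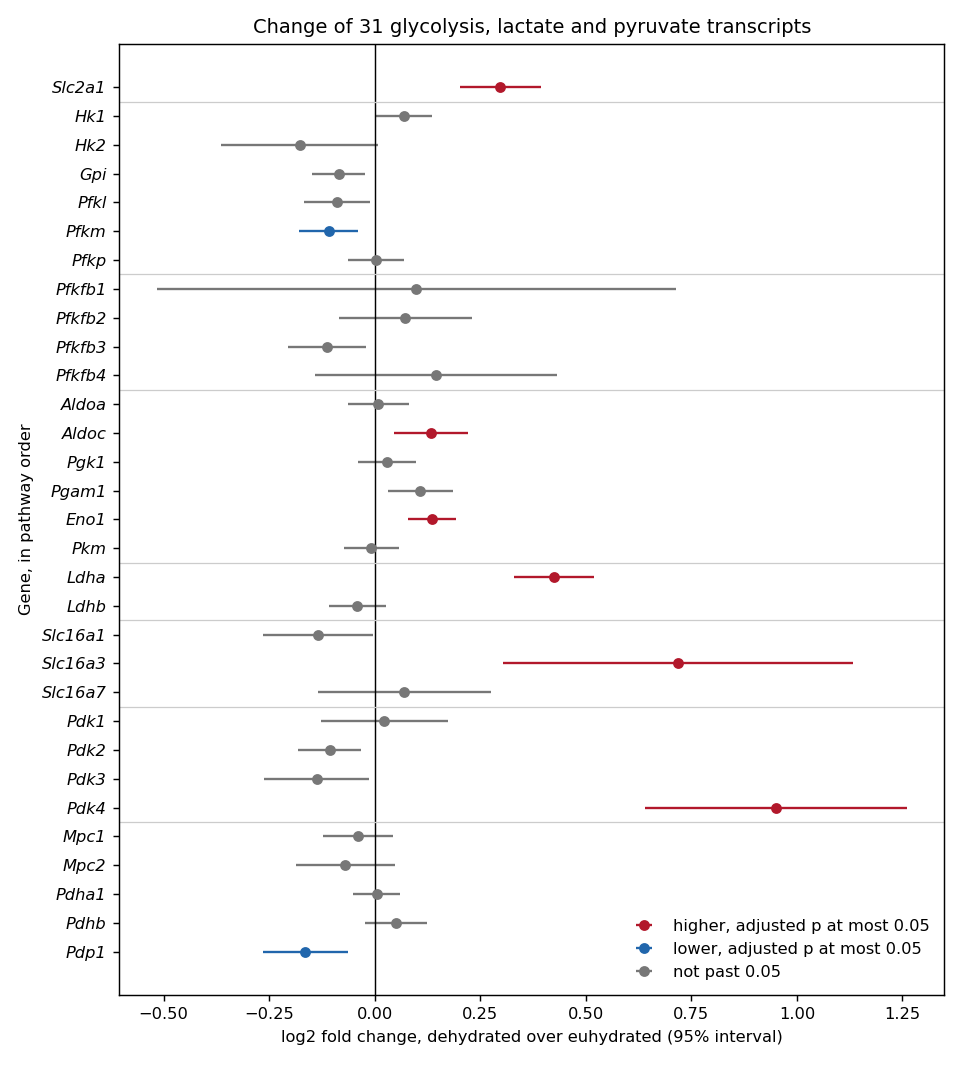
Log2 change of each tested member (dehydrated over euhydrated), ordered by step of the pathway; points are edgeR estimates and bars their 95% confidence intervals. Pdk4 at 0.95, Slc16a3 at 0.72, Ldha at 0.42 and Slc2a1 at 0.30 stand to the right, and the members that did not pass the test lie between -0.18 and 0.15.

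Ldha, Slc2a1 and Pdk4 had the 3 smallest adjusted p-values among the members. The 250 bases before their transcription starts are shown because all 3 rose but they differ in a motif read by hypoxia-inducible factors. Capitals mark ACGTG or GCGTG, the core of the hypoxia response element, read on either strand (as CACGT or CACGC on the printed one). The letters CACGTG in Ldha hold the core on both strands and are also the E-box hexamer. The sequences come from RefSeq on assembly GRCr8 and run 5′ to 3′ on each gene's own strand.
Slc2a1, chr5:138002272-138002521, plus strand: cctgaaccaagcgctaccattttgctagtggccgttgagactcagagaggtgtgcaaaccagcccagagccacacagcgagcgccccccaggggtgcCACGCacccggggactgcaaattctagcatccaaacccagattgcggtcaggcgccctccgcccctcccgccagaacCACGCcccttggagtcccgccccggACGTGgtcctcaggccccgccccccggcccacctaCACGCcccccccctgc
Ldha, chr1:106507842-106508091, plus strand: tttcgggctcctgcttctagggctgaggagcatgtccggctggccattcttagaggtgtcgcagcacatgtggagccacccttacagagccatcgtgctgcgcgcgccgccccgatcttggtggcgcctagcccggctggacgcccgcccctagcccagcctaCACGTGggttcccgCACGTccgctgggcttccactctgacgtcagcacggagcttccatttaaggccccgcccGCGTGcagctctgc
Pdk4, chr4:34568330-34568579, minus strand: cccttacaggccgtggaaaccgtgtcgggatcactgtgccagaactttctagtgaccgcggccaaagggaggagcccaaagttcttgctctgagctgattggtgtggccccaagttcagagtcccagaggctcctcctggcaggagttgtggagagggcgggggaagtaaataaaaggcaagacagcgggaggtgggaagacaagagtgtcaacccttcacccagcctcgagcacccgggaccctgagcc
Slc2a1 held 4 matches, which began 153, 76, 51 and 16 bases before the start. Ldha held 3, at 87, 73 and 14 bases before it. Pdk4 held 0. At least 1 match was present in 36.7% of all 33469 RefSeq windows of this length, and 2 or more in 12.9%. Among members that did not pass, Pdk3 held 5 and Pdha1 and Pdhb 3 each, while Gpi and Pkm held 0. By gene, 20 of the 29 tested members with a window had a match (69.0%), against 39.6% of all 27457 genes with a window. That background includes genes not expressed here and was not matched for expression or base composition, and the difference was not tested. Among the members the share was 4 of 6 for those that rose and 15 of 22 for those that did not pass (66.7% and 68.2%). It was 1 of 1 for those that fell. These groups are small, and whether the motif goes with the direction of change was not tested. A match describes letters only and is neither a bound site nor a cause.

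Glucose entry was represented by Slc2a1, the GLUT1 transporter of the blood-brain barrier and of astrocytes, which rose 1.23-fold. Its level was 130.4, 128.4, 126.8, 131.2 and 137.1 CPM in euhydrated libraries 1 to 5, and 172.9, 162.7, 157.7, 168.2 and 142.3 CPM in dehydrated libraries 1 to 5. The groups did not overlap, and dehydrated library 5 came nearest to the euhydrated ones. The means were 130.8 ± 3.91 and 160.7 ± 11.8 CPM, a log2 change of 0.30 ± 0.045 (edgeR adjusted p = 0.000378). Of 8 endothelial markers tested, 1 (Kdr, a VEGF receptor) rose, from 28.03 to 32.88 CPM (edgeR adjusted p = 0.0117), and 7 did not pass. Log2 changes were above 0 for 6 of the 8 and below 0 for 2, with Esam at 0.16 and Cdh5 at -0.11. At an unadjusted edgeR p of 0.05, 3 were higher and 1 was lower. The mean log2 level of the endothelial list differed by 0.07 (exact permutation p = 0.135, adjusted 0.238), and the list summed to 398.6 to 417.4 CPM with water and 387.9 to 442.6 CPM without. With the endothelial marker level as a covariate, the log2 change of Slc2a1 was 0.23 ± 0.044 (edgeR adjusted p = 0.00533). Slc2a3, the neuronal transporter GLUT3, had 5 counts over all 10 libraries and was not tested.

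The steps from hexokinase to fructose 1,6-bisphosphate gave 0 members that rose and 1 of 6 that fell. Pfkm, the muscle-type subunit of phosphofructokinase, fell by 0.11 ± 0.033 on the log2 scale (edgeR adjusted p = 0.0408). Its level was 565.5, 595.5, 572.9, 552.1 and 545.3 CPM in the euhydrated libraries and 541.6, 551.2, 518.0, 510.2 and 503.5 CPM in the dehydrated ones. The dehydrated values were mostly lower, but dehydrated library 2 lay above euhydrated library 5. The call was lost without any one of 7 libraries (euhydrated 1, 2, 3 or 4, or dehydrated 3, 4 or 5), with edgeR adjusted p up to 0.0999. With the erythrocyte marker level as a covariate, Pfkm changed by -0.08 (adjusted p = 0.411). The other subunits, Pfkl of liver type and Pfkp of platelet type, had log2 changes of -0.09 (adjusted p = 0.134) and 0.00 (adjusted p = 0.964).

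Hk1, the hexokinase held on mitochondria in most brain cells, had a log2 change of 0.07 (374.6 ± 11.7 and 392.9 ± 13.7 CPM, edgeR adjusted p = 0.175). Hk2, the inducible hexokinase, had -0.18 (14.88 ± 2.13 and 13.15 ± 0.831 CPM, adjusted p = 0.209), with its highest value, 18.45 CPM, in euhydrated library 4. Gpi interconverts glucose and fructose phosphates, and its level was 640.2, 675.5, 650.5, 618.7 and 649.3 CPM with water and 604.2, 624.9, 605.9, 588.8 and 624.3 CPM without. Its groups overlapped only where euhydrated library 4 lay below dehydrated libraries 2 and 5. The log2 change of Gpi was -0.09 ± 0.029 and missed the threshold (edgeR adjusted p = 0.0702).

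The PFKFB enzymes make and break fructose 2,6-bisphosphate, the activator of phosphofructokinase, and 0 of 4 passed the edgeR test (1 at an unadjusted p of 0.05, and 0 after adjustment by DESeq2 or limma-voom). Pfkfb3, the isozyme with the strongest kinase activity, was at 57.39 ± 2.31 CPM with water and 53.07 ± 2.67 CPM without (log2 change -0.11, edgeR adjusted p = 0.102). Pfkfb2, the heart-type isozyme, changed by 0.07 (adjusted p = 0.583). Pfkfb4 changed by 0.15 (adjusted p = 0.542), with a 95% interval from -0.14 to 0.43. Pfkfb1, the liver-type isozyme, had only 126 counts in all, and its interval of -0.52 to 0.71 is wide: no change (0.10, adjusted p = 0.877) was detectable at this depth.

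In lower glycolysis 2 of 6 tested members rose and 0 fell. Eno1, the enolase found in most cell types, rose by a small but regular amount. Its level was 471.4, 492.5, 484.8, 470.0 and 480.0 CPM with water and 510.3, 536.7, 542.9, 526.1 and 520.5 CPM without. Every dehydrated value exceeded every euhydrated one, and the log2 change was 0.14 ± 0.027, or 9.91% (edgeR adjusted p = 0.00335). With the erythrocyte marker level as a covariate the estimate was 0.14 ± 0.040 and the call was lost (adjusted p = 0.0707).

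Aldoc, the aldolase of astrocytes in brain, rose by 9.70%. It was at 995.6, 1066, 1023, 930.3 and 983.3 CPM with water and 1121, 1119, 1078, 1159 and 1006 CPM without. Dehydrated library 5 lay within the euhydrated range, and the other dehydrated libraries lay above it. The log2 change was 0.13 ± 0.041 (edgeR adjusted p = 0.0438). This call was lost without any one of 8 libraries (all but euhydrated 2 and dehydrated 5), with adjusted p up to 0.108, and with the endothelial, erythrocyte or oligodendrocyte marker level as a covariate, where the log2 change of Aldoc was 0.09, 0.14 and 0.12. Of 10 astrocyte markers 0 passed by edgeR, DESeq2 or limma-voom (0 also at an unadjusted edgeR p of 0.05), and they summed to 6057 to 7233 CPM with water and 6024 to 7153 CPM without. With the astrocyte marker level as a covariate the log2 change of Aldoc was 0.15 ± 0.035 (edgeR adjusted p = 0.0101).

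Aldoa, the aldolase of muscle and most other tissues, was the most counted member. It was at 1265, 1317, 1268, 1247 and 1194 CPM with water and 1254, 1342, 1291, 1227 and 1212 CPM without, and the groups overlapped throughout (log2 change 0.01, edgeR adjusted p = 0.915). Pkm, pyruvate kinase, was at 625.5, 683.2, 665.9, 627.2 and 647.5 CPM with water and 636.5, 669.2, 649.8, 627.5 and 648.4 CPM without. All dehydrated values of Pkm fell inside the euhydrated range (log2 change -0.01, adjusted p = 0.909). Pgk1, phosphoglycerate kinase, changed by 0.03 (edgeR adjusted p = 0.639). Pgam1, phosphoglycerate mutase, was at 438.1 ± 22.2 and 472.2 ± 16.8 CPM (log2 change 0.11 ± 0.037, adjusted p = 0.0658).

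Tpi1, triosephosphate isomerase, and Eno2, the neuronal enolase, had 32 and 71 counts over all libraries and were not tested. For both, and for Slc2a3, the table holds a further row named as a like gene (9, 38 and 140 counts), so that counts of near-identical copies may have been split or dropped, and these low counts give no measure of expression. The row that the authors' deposited table pairs with the NCBI name Gapdh stands under the symbol LOC108351137 and had 217719 counts. It was at 807.6 ± 25.6 CPM with water and 822.7 ± 25.9 CPM without (log2 change 0.03, edgeR adjusted p = 0.641), and it was not counted among the members. Ldha, Eno1 and Pkm also have low-count rows with related names. The row related to Ldha, RGD1562690, ranged from 1.193 to 9.55 CPM with water and from 1.857 to 10.24 CPM without, with no difference past the test (adjusted p = 0.944).

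**Figure D2:**
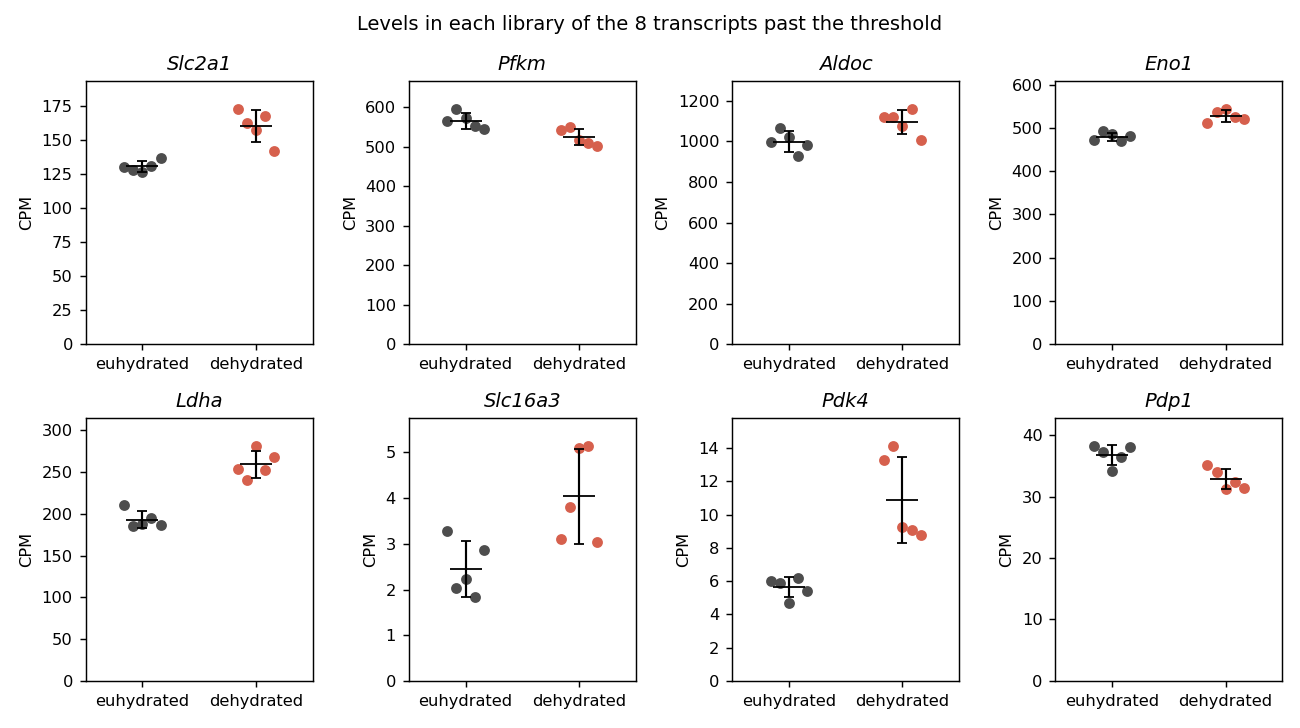
Level in CPM of the 8 members past the threshold in each library; each panel has its own linear axis from 0, points are libraries (dark, euhydrated; red, dehydrated), horizontal lines are group means and whiskers the SD. For Slc2a1, Eno1, Ldha and Pdk4 the lowest dehydrated point lies above the highest euhydrated point, and for Aldoc, Slc16a3, Pfkm and Pdp1 the groups overlap.

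Ldha, the lactate dehydrogenase subunit associated with lactate formation, rose 1.34-fold and had the smallest adjusted p of any member. Its level was 210.0, 185.9, 187.3, 194.9 and 186.9 CPM with water and 253.5, 240.0, 281.1, 252.1 and 268.1 CPM without. The groups were apart, with euhydrated library 1 the highest of its group and dehydrated library 2 the lowest of its own. The means were 193.0 ± 10.2 and 259.0 ± 15.9 CPM, a log2 change of 0.42 ± 0.044 (edgeR adjusted p = 1.49e-05). The partner subunit Ldhb, associated with lactate use, was at 425.0 ± 16.2 and 412.9 ± 12.3 CPM (log2 change -0.04, adjusted p = 0.447, 95% interval -0.11 to 0.03).

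The count ratio of Ldha to Ldhb, which is not scaled by gene length and is read only for its change, was 0.499, 0.419, 0.427, 0.481 and 0.449 in euhydrated libraries. In dehydrated libraries it was 0.596, 0.564, 0.683, 0.630 and 0.667. The ratio rose 1.38-fold, by 0.46 on the log2 scale, with no overlap (exact permutation test over 252 labellings, two-sided, p = 0.00794, the smallest this design allows, and 0.0119 adjusted over 3 ratios). The ratio of Aldoa to Aldoc went from 1.26 ± 0.0492 to 1.16 ± 0.0646, a log2 difference of -0.13, and the ranges of 1.214 to 1.34 and 1.059 to 1.205 did not meet (exact permutation p = 0.00794, adjusted 0.0119). The ratio of Hk1 to Hk2 went from 25.6 ± 3.73 to 29.95 ± 1.35, a log2 difference of 0.24 (exact permutation p = 0.0238, adjusted 0.0238). Its groups overlapped, with 19.82 in euhydrated library 4 and 30.21 in euhydrated library 3. Without euhydrated library 4 the difference of Hk1 over Hk2 was 0.15, and without dehydrated library 1, 3 or 5 the adjusted exact p was 0.0556 to 0.0635. Ratios with Eno2 or Slc2a3 were not computed because of their counts.

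**Figure D3:**
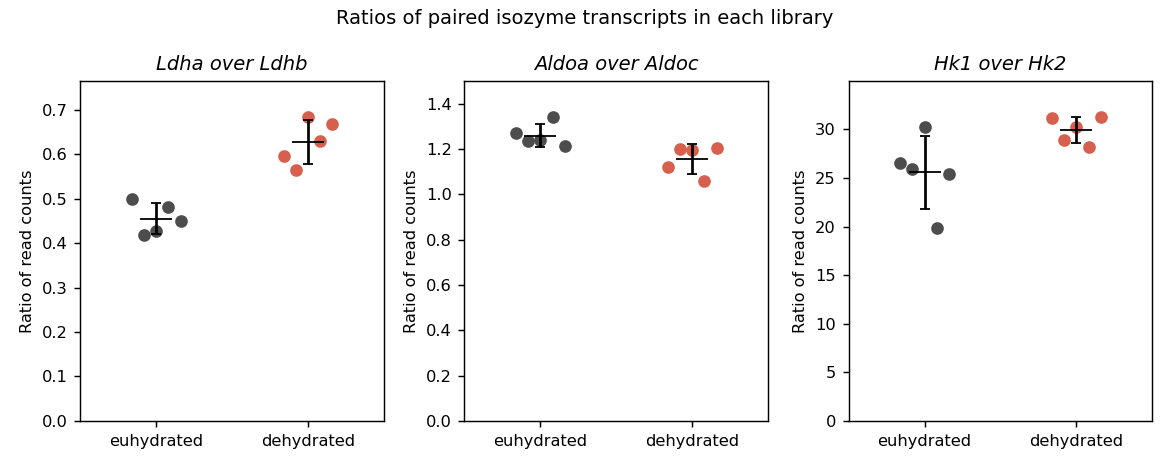
Count ratio of each isozyme pair in every library, on linear axes from 0, with points for libraries, horizontal lines for group means and whiskers for the SD. The Ldha to Ldhb ratio ran from 0.419 to 0.499 in euhydrated and from 0.564 to 0.683 in dehydrated libraries, and the Hk1 to Hk2 ratio overlapped between groups.

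Of the monocarboxylate transporters 1 of 3 rose. Slc16a3, which encodes MCT4, a lactate exporter of glycolytic cells and of astrocytes, was at 3.289, 2.04, 2.232, 1.826 and 2.862 CPM with water and 3.095, 3.815, 5.10, 5.142 and 3.04 CPM without. Euhydrated library 1 lay above dehydrated libraries 1 and 5. The log2 change was 0.72 ± 0.194, 1.64-fold (edgeR adjusted p = 0.0244), from 858 counts in all. The call was lost without any one of 5 libraries (euhydrated 2, 3 or 4, or dehydrated 3 or 4), with adjusted p up to 0.0686, and with the erythrocyte or the endothelial marker level as a covariate (0.54 ± 0.271, adjusted p = 0.316, and 0.55 ± 0.226, adjusted p = 0.176).

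Slc16a1, or MCT1, of endothelial and glial cells, was at 83.44 ± 6.44 and 76.01 ± 6.05 CPM (log2 change -0.13, edgeR adjusted p = 0.175). The oligodendrocyte markers, a cell type known for MCT1, summed to 9956 to 14510 CPM with water and 9514 to 12140 CPM without. Of these 9 markers 2 fell, against 4.90% of all genes tested. Their mean log2 level differed by -0.15 (exact permutation p = 0.159, adjusted 0.238). Whether this difference goes with that of Slc16a1 was not tested. Slc16a7, the neuronal MCT2, changed by 0.07 (6.17 ± 0.191 and 6.486 ± 0.901 CPM, adjusted p = 0.705).

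Pdk4, a pyruvate dehydrogenase kinase known to be induced by fasting and glucocorticoids, had the largest fold of any tested member, 1.93. It was at 5.999, 5.904, 4.708, 6.202 and 5.434 CPM with water and 13.29, 14.13, 9.239, 9.104 and 8.76 CPM without. All dehydrated libraries were above all euhydrated ones, with libraries 1 and 2 higher than the other dehydrated libraries. The log2 change was 0.95 ± 0.144 (edgeR adjusted p = 0.000654).

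The remaining 3 kinases, which phosphorylate the same complex, did not pass. Pdk2, the kinase known to be the most widely expressed, was at 96.29 ± 3.47 and 89.46 ± 2.99 CPM (log2 change -0.11, edgeR adjusted p = 0.0590). Pdk1, known as a hypoxia-responsive kinase, changed by 0.02 (adjusted p = 0.880), and Pdk3 by -0.14 (adjusted p = 0.148, 95% interval -0.26 to -0.01).

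Pyruvate entry and oxidation gave 0 members that rose and 1 of 5 that fell. Pdp1, the phosphatase that reactivates the pyruvate dehydrogenase complex, was at 38.24, 37.18, 34.18, 36.49 and 38.04 CPM with water and 35.06, 34.07, 31.3, 32.41 and 31.44 CPM without. The groups met only at euhydrated library 3, which lay below dehydrated library 1. Pdp1 fell by 0.16 ± 0.047 on the log2 scale (edgeR adjusted p = 0.0314). The call was lost without any one of 7 libraries (euhydrated 1, 2, 4 or 5, or dehydrated 3, 4 or 5), with adjusted p up to 0.0823, and with the erythrocyte marker level as a covariate (-0.11 ± 0.064, adjusted p = 0.419).

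Pdha1 and Pdhb, the subunits of the complex's first enzyme, changed by 0.00 and 0.05 (edgeR adjusted p = 0.939 and 0.380). Their levels were 184.0 ± 1.78 and 184.5 ± 4.25 CPM for Pdha1, and 136.3 ± 2.36 and 141.2 ± 6.75 CPM for Pdhb. Mpc1 and Mpc2, which together form the mitochondrial pyruvate carrier, changed by -0.04 and -0.07 (adjusted p = 0.579 and 0.469).

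Of the 23 members that did not pass, 17 had a 95% interval wholly within 0.25 on the log2 scale either way, a fold of 1.19. The intervals of Hk2, Pfkfb1, Pfkfb4, Slc16a1, Slc16a7 and Pdk3 were wider. Spread between libraries of one group was small for most members, with a median coefficient of variation of 4.02% in euhydrated and 5.03% in dehydrated libraries. In the authors' deposited table, 30 members have an adjusted p, of which 6 were higher and 4 lower in dehydrated samples at 0.05 (Gpi, Pfkm, Pdk2 and Pdp1 lower). Of all genes given an adjusted p in the authors' deposited table, 9.05% were higher and 6.33% lower.

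**Figure D4:**
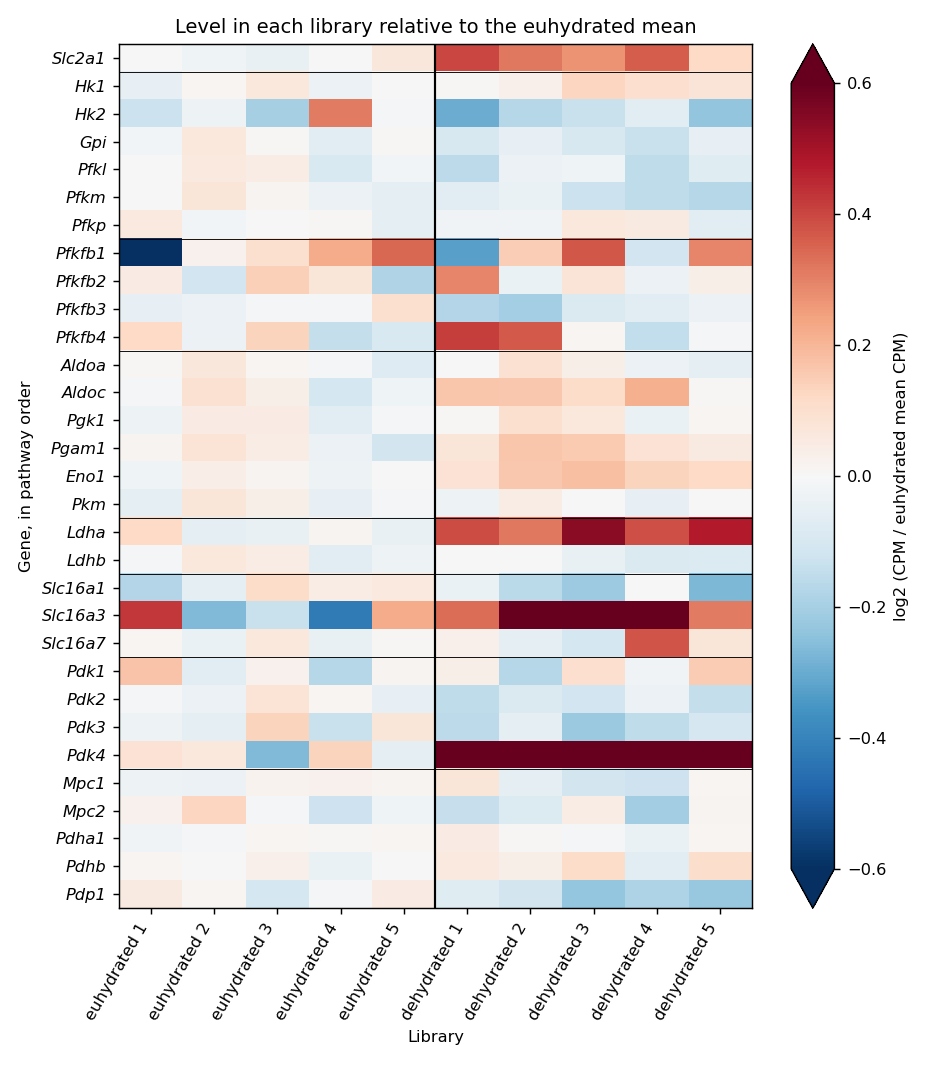
Level of each tested member in each of the 10 libraries, as the log2 difference from the mean of the 5 euhydrated libraries, blue for lower and red for higher, with colours saturating at the ends of the scale. Ldha, Slc2a1, Pdk4 and Eno1 were higher in all 5 dehydrated libraries than in any euhydrated one, and most other members show no such block.

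Around these members, 9 lists of 132 related genes were examined, of which 115 were tested, 16 rose and 5 fell. The shares over all genes tested were 7.79% that rose and 4.90% that fell. Each list count below stands beside these shares, and no list was tested as a set. Among other isozymes and partners 5 of 17 rose and 0 fell. Emb, which encodes embigin, a chaperone of monocarboxylate transporters, was at 28.15, 27.27, 27.93, 28.65 and 30.11 CPM with water and 37.32, 37.57, 37.18, 41.43 and 34.88 CPM without, with no overlap (log2 change 0.41 ± 0.049, edgeR adjusted p = 5.06e-05). Bsg, which encodes basigin, the other chaperone, is not among the 4 largest changes but also passed, at 0.10 ± 0.028 (adjusted p = 0.0365), though no alternative was run for it. The insulin-responsive transporter Slc2a4 changed by 0.48 ± 0.132 (adjusted p = 0.0262), the transporter Slc16a6 by 0.27 ± 0.082 (adjusted p = 0.0438), and the inositol transporter Slc2a13 by 0.20 ± 0.035 (adjusted p = 0.00142). Slc2a4 lost its call without any one of 6 libraries (all but euhydrated 1 and 3 and dehydrated 1 and 4) and Slc16a6 without any one of 8 (all but dehydrated 1 and 3), with edgeR adjusted p up to 0.0707 and 0.105. Over all 24 alternatives, Slc2a4 lost its call under 9 and Slc16a6 under 15. With the erythrocyte marker level as a covariate their edgeR adjusted p was 0.447 and 0.662.

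The glycerol phosphate shuttle moves electrons from cytosolic NADH to mitochondria and competes with lactate dehydrogenase for NADH. Its cytosolic enzyme Gpd1 was at 44.13, 39.72, 42.86, 44.67 and 48.73 CPM with water and 92.4, 143.0, 92.8, 147.9 and 98.96 CPM without. The groups were far apart, and dehydrated libraries 2 and 4 were the highest (2.61-fold, log2 change 1.38 ± 0.162, edgeR adjusted p = 0.000748). Gpd1l, a related enzyme, changed by -0.20 ± 0.044 (adjusted p = 0.00614), and of the 9 genes of NADH shuttles these were the only ones past the test. With the erythrocyte marker level as a covariate the Gpd1l call was lost (edgeR adjusted p = 0.0816).

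The citric acid cycle had 0 of 16 genes past the test in edgeR (5 at an unadjusted p of 0.05, 2 higher and 3 lower), against 1, which was lower, in DESeq2 and 0 in limma-voom. Among them, Sdha, of succinate dehydrogenase, had a log2 change of -0.07 (edgeR adjusted p = 0.137). Of 12 further genes of the pyruvate dehydrogenase complex and pyruvate fates, Pck2 and Gpt2 rose (0.24 and 0.22, edgeR adjusted p = 0.00972 and 0.0189) and the malic enzyme Me3 fell (-0.18, adjusted p = 0.0465). Pck2 lost its call with the erythrocyte or the oligodendrocyte covariate (edgeR adjusted p up to 0.107, log2 change at least 0.18). Gpt2 lost its call with the erythrocyte or the endothelial covariate (adjusted p up to 0.131, log2 change at least 0.19). The Me3 call was lost without any one of 9 libraries (all but euhydrated 5), with edgeR adjusted p up to 0.121, and under 17 of 24 alternatives in all. In glycogen metabolism 1 of 17 rose, Pgm2 (0.22 ± 0.054, edgeR adjusted p = 0.0143), against 7.79% of all genes tested. The Pgm2 call was lost with the erythrocyte or the endothelial marker level as a covariate, with edgeR adjusted p up to 0.424. Its log2 change ran from 0.11 to 0.25 over the 24 alternatives.

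Some hypoxia-inducible factors are known activators of many glycolytic genes, and the activity of none was measured here. Of these factors and their hydroxylases 2 of 10 rose and 1 fell. Hif3a was at 1.048, 0.859, 1.221, 1.179 and 1.051 CPM with water and 3.677, 5.295, 2.883, 2.992 and 3.36 CPM without, without overlap (3.39-fold, edgeR adjusted p = 1.51e-05). Hif1a was at 119.7 ± 4.18 and 134.9 ± 7.47 CPM (0.17 ± 0.039, adjusted p = 0.00849), and Egln3, a hydroxylase that marks these factors for degradation, changed by -0.23 ± 0.068 (adjusted p = 0.0400). With the erythrocyte marker level as a covariate the log2 change of Hif1a was 0.13 ± 0.055 (edgeR adjusted p = 0.228). Egln3 lost its call without any one of 7 libraries (all but euhydrated 2 and 3 and dehydrated 5), with adjusted p up to 0.106, and under 14 of 24 alternatives in all.

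Of 15 known targets of these factors outside glycolysis 3 rose and 1 fell. Vegfa, the vascular growth factor, changed by 0.22 ± 0.033, the collagen hydroxylase P4ha2 by 0.20 ± 0.054 and the oxidase Ero1a by 0.14 ± 0.043 (edgeR adjusted p = 0.000410, 0.0203 and 0.0428), while the repressor Bhlhe41 changed by -0.33 ± 0.059 (adjusted p = 0.00159). Ero1a lost its call without any one of 7 libraries (all but euhydrated 3 and 5 and dehydrated 4). P4ha2 lost its call without euhydrated 1 or dehydrated 2. Without single libraries their edgeR adjusted p reached 0.0993 and 0.0577. Both calls were also lost with the endothelial or the oligodendrocyte covariate (edgeR adjusted p up to 0.149 for Ero1a and 0.0668 for P4ha2). The Ero1a call was lost as well with library totals and with the erythrocyte or the astrocyte covariate. Of the 24 alternatives, 12 lost the Ero1a call and 4 the P4ha2 call. Of 12 genes of glucose and energy sensing, Mlx, a partner of the carbohydrate response factor, changed by 0.21 ± 0.041, and Prkag2, a subunit of the AMP-activated kinase, by -0.20 ± 0.033 (edgeR adjusted p = 0.00305 and 0.000767). Mlx lost its call with the erythrocyte covariate (edgeR adjusted p = 0.0535).

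**Figure D5:**
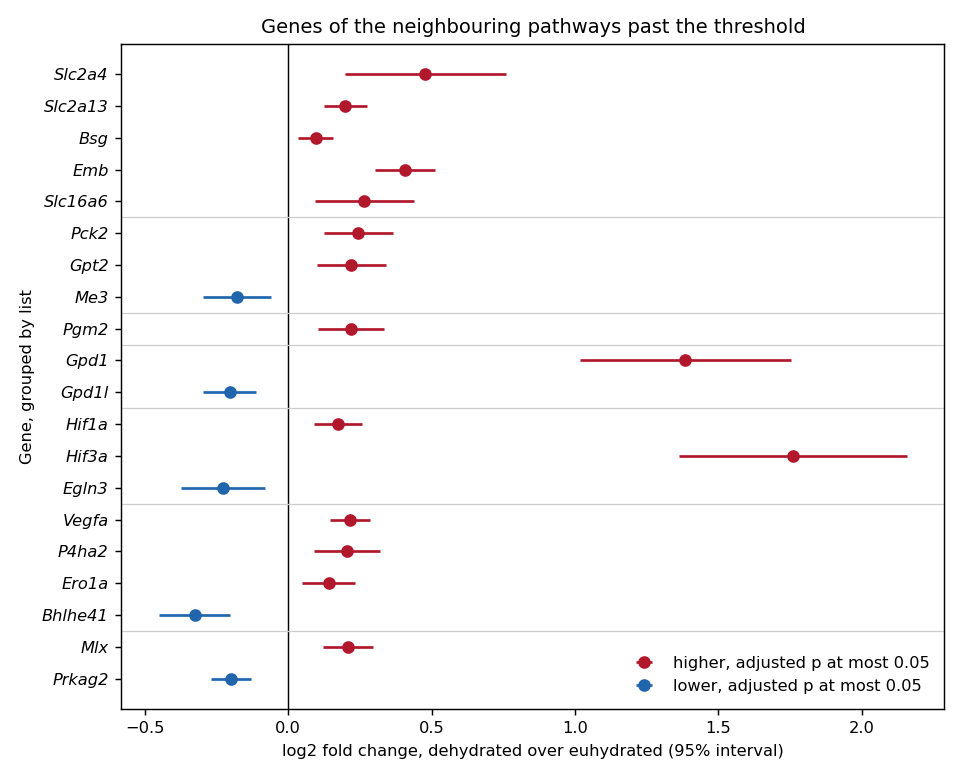
Log2 change (dehydrated over euhydrated) of the 20 genes of the related lists that passed the edgeR threshold and are named here, grouped by list, with 95% intervals; red is higher and blue lower. Gpd1 at 1.38 and Hif3a at 1.76 lie farthest to the right, and the 5 genes that fell lie between -0.33 and -0.18.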

How the data were processed

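Raw read counts per Ensembl gene, deposited by the authors for 10 libraries, were used without normalisation. The submitters' processing notes name DESeq2 1.28.1, featureCounts, STAR, CASAVA and FastQC. Genome build, annotation and strand setting: not given in the sources used here; therefore near-identical, overlapping or antisense genes are uncertain. The authors' deposited table of their own comparison holds log2 fold changes, p-values, a Wald statistic (a score), normalised counts (a signal) and the gene symbols. Its normalised values equalled count over 1 size factor per sample in 100% of cases, within 1% or 0.1.

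Libraries are numbered by column name; for euhydrated 3 to 5 the name gives the group but not which labelled sample. The labels tie no replicate number to a shared animal or day. Counts were filtered (filterByExpr), TMM-scaled and tested with edgeR 4.0.16 quasi-likelihood in R 4.3.3, all 10 libraries, Benjamini-Hochberg over 15311 genes. Isozyme count ratios were compared by exact permutation, adjusted over the 3 of 5 planned pairs with counts. The fitting script was tested on simulated data. Alternatives used DESeq2 1.42.0, limma 3.58.1, other scalings, filters and thresholds, marker covariates, replicate blocks and each library left out. No 2 libraries of a group agreed within sampling noise (chi-square over its degrees of freedom, 4.86 to 12.1).

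Every member was named. Members past the threshold, and the 3 others with the highest mean CPM, were given per library. Of each related list up to 4 genes past the threshold with the largest change were named, or else the 2 with the highest mean; some results that this rule would name are not reported here. Emb, Gpd1 and Hif3a were given per library and Bsg was named after their values were seen. The members and lists were chosen with earlier results of these data known. Of the 9 cell type lists, none passed the threshold after adjustment over the 9 (smallest adjusted p = 0.143, exact permutation test). The smallest exact p that 252 labellings allow is 0.00794, so a list that differed alone could not have passed after this adjustment. The result therefore does not show that cell composition was the same in both groups. The erythrocyte list differed by -0.81 in mean log2 CPM. The other lists differed in mean log2 CPM by 0.25 (magnocellular), -0.02 (neurone), -0.04 (astrocyte), -0.15 (oligodendrocyte), -0.10 (microglia), 0.07 (endothelial), 0.13 (mural) and -0.08 (meninges and choroid plexus).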

Additional observations from a re-analysis of the deposited data

How the results depend on the processing

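Ldha, Slc2a1 and Pdk4 passed the threshold under each of 24 alternatives that kept the adjusted p at 0.05, and also at 0.01 and against a fold of 1.1 (edgeR adjusted p = 0.000172, 0.0121 and 0.0017). Eno1 was lost only with the erythrocyte covariate and against the fold of 1.1. Pfkm and Pdp1 were each lost under 11 of the 24, Aldoc under 12 and Slc16a3 under 8. Of the 23 uncalled members 18 passed under no alternative, and 29 changes of sign among members had no call on either side. The cause of these changes was not tested.

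The main counts are 6 members that rose and 2 that fell. Members that fell numbered 6 with library totals in place of TMM, 4 by DESeq2, 1 with the astrocyte or the oligodendrocyte covariate, and 0 with the erythrocyte, endothelial or neurone covariate, at 0.01 and against a fold of 1.1. Without single libraries they numbered 0 to 2. Members that rose numbered 3 with the erythrocyte covariate and against a fold of 1.1. Only Slc2a1, Eno1, Ldha and Pdk4 rose with the endothelial covariate and at 0.01. The same held without euhydrated library 3 or 4, or dehydrated library 3 or 4. Aldoc was lost from the rise without euhydrated library 1 or 5, or dehydrated library 1 or 2. Without euhydrated library 2, Slc16a3 was lost and Pgam1 was added. With library totals, 5 members rose, Aldoc was lost, and Gpi, Pdk2, Pfkfb3 and Pfkl were called lower. The share of calls that were higher then went from 61.4% to 43.5%, and the median log2 change of all genes from -0.01 to -0.03. DESeq2 added Gpi and Pdk2.

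Counts of all genes that rose were 492 with the erythrocyte and 743 with the endothelial covariate, 658 at 0.01 and 400 against the fold of 1.1. Counts of all genes that fell were 1173 with library totals, 155 with the erythrocyte and 349 with the endothelial covariate, 233 at 0.01 and 86 against the fold of 1.1. The log2 difference of Hk1 over Hk2 ran from 0.15 to 0.30 without single libraries, and the adjusted exact p reached 0.0635.

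Replicate numbers did not pair the libraries. Correlations of deviations ran from -0.07 to 0.14, and 1 dehydrated library, number 2, was best matched by its own number. A replicate block for numbers 1 and 2 gave 7 members that rose and 2 that fell (Pgam1 added). A replicate block by column number gave 6 and 3, with Slc16a3 lost and Gpi and Pgam1 added. Pfkfb1 had 126 counts in all and the widest interval of the tested members.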
